A study of Mus musculus with 6 samples.

Results

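The nuclear genes for the subunits of respiratory complexes II, III, IV and V and for cytochrome c were followed in RNA-seq counts of subcutaneous white adipose tissue (scWAT) of mice. The members were 38 of the 55401 genes in the count tables. They were chosen by symbol: 4 genes of complex II, 9 of complex III, *Cycs* for cytochrome c, 7 of complex IV and 17 of complex V, the ATP synthase. Subunits that exist as tissue isoforms in complex IV were kept apart, and pseudogenes were left out. In complex V, *Atp5g1*, *Atp5g2* and *Atp5g3* are 3 genes for 1 mature protein, the c subunit, so this set is not wholly free of alternative genes. *Cox7a2l* was counted with complex IV, although its product is better known for joining complexes III and IV. All 38 members passed the filter on low counts, with 324 to 54932 fragments of a member in a library.

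Total RNA was sequenced from 3 control mice and 3 mice of the genotype Yapfl/fl/Tazfl/fl;AdipoqCre (YT-AKO), all male and 8 weeks old. The controls are labelled WT, and the study's methods describe them as YT-FF, with the floxed alleles of *Yap* and *Taz* and no Cre. Both groups therefore carried the floxed alleles according to the methods. The *Adipoq* promoter drives Cre in mature adipocytes, so the other cells of the depot keep both genes. YAP and TAZ are transcriptional coactivators of the Hippo pathway, and the comparison asks which transcripts of scWAT differ when adipocytes are to lack them. The study's methods give 3 mice a group, so the p-values below measure the spread between mice and between their libraries together.

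The respiratory chain sits in the inner mitochondrial membrane. Complex II (succinate dehydrogenase) passes electrons from succinate to ubiquinone, complex III passes them on to cytochrome c, and complex IV passes them to oxygen. Complexes III and IV pump protons as they do so, and complex V lets the protons return and makes ATP. Complex II is encoded wholly in the nucleus, while complexes III, IV and V each hold subunits of the mitochondrial genome. White adipocytes are known for a modest content of mitochondria, and brown and beige adipocytes for a high one, in which UCP1 lets protons return without making ATP.

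The libraries held 17740987 to 21838493 counted fragments. *Yap1* was counted with 1622, 1300 and 1295 fragments in YT-FF 1, 2 and 3 and with 649, 492 and 529 in the libraries labelled YT-AKO 1, 2 and 3 (log2 fold change -0.98, edgeR adjusted p = 0.0179). *Wwtr1*, the gene of TAZ, went against the label, with 1818, 1729 and 1918 fragments in YT-FF against 3015, 2253 and 2716 in the libraries labelled YT-AKO (log2 fold change 0.89, edgeR adjusted p = 0.0220). Counts were summed over all exons, so loss of a single floxed exon could not be seen in them. Every direction below follows these labels. The library labelled YT-AKO 2 stood apart from its group. It had counts on 20501 genes against 22810 to 24576 in the other 5 libraries. Its chi-square distance per degree of freedom to its 2 group mates was 176 and 159, and all other pairs within a group lay between 13.3 and 36.5. Log2 fold changes of the members are therefore given with and without this library. Of 8 adipocyte markers, 2 were called higher, where 12.6% of all tested genes were. Their summed level was 10586 to 15777 CPM in YT-FF and 17833 to 31655 CPM in the libraries labelled YT-AKO. These sums did not overlap in CPM, but only 3 of the 8 markers had all libraries labelled YT-AKO above all YT-FF libraries. Per length (TPM, below) the sums overlapped, at 14058 to 19231 TPM in YT-FF and 16069 to 18416 TPM in the libraries labelled YT-AKO. *Adipoq* alone ran at 1473 to 1999 CPM in YT-FF and 1939 to 2402 CPM in the libraries labelled YT-AKO. Of 6 markers of the brown depot, 5 were tested and 0 were called, or 1 higher without the library labelled YT-AKO 2 (16.9% of all genes). Their summed level was 286 to 569 CPM in YT-FF and 376 to 635 CPM in the libraries labelled YT-AKO. The sixth, *Zic1*, was at 0 in every library. The summed level of 12 skeletal muscle markers was 3778 CPM in the library labelled YT-AKO 1 and 166 to 567 CPM in the other 5. That of 6 B cell markers was 1016 to 1200 CPM in YT-FF and 618 to 859 CPM in the libraries labelled YT-AKO. Of these 6, 4 were called lower, where 9.01% of all tested genes were. The part of such shifts in cell content in the results below was not tested.

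Promoter sequences bear on genes that move together, and are shown here for the members with the largest number of different motifs. RefSeq windows of 300 bases, from 250 before to 50 after a transcription start, were at hand for 29 of the 38 members, in 32 windows (GRCm38.p6, the same assembly as mm10). Letters of 6 motifs were searched on both strands, none of them contained in another. NRF1, a factor known for its sites in respiratory genes, was searched as a 10-letter pattern with 1 free position, whose matches stand in capitals below, and was matched in 9 windows of 9 members, which is 28.1% of the member windows against 4.60% of 32851 windows of all genes. ERR (TNAAGGTCA), for the estrogen-related receptors, was matched in 6.25% against 1.28%. ETS (CCGGAAGT), which GABP reads, was matched in 9.38% against 3.89%, and YY1 (AAGATGGCG) in 6.25% against 1.40%. CRE (TGACGTCA) was matched in 6.25% against 1.79%. TEAD (GGAATG), the letters read by the DNA-binding partners of YAP and TAZ, was matched in 12.5% of member windows against 14.7% of all windows. These shares are descriptions of the letters in the windows, and no binding was measured.

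*Atp5j2*, *Atp5h* and *Sdhd* held 2 different motifs each and were called higher. The same holds for *Atp5g3*, whose fold change was smaller and whose window is not shown. The 3 windows are given on the gene's own strand, which is the minus strand throughout, with the matched letters in capitals. In *Atp5j2* (chr5:145191492-145191791) the capitals mark a TEAD match, a second TEAD match read on the other strand, and a YY1 match. In *Atp5h* (chr11:115419870-115420169) they mark NRF1 and then ETS on the other strand. In *Sdhd* (chr9:50603800-50604099) they mark NRF1 and then ERR on the other strand.
Atp5j2 promoter: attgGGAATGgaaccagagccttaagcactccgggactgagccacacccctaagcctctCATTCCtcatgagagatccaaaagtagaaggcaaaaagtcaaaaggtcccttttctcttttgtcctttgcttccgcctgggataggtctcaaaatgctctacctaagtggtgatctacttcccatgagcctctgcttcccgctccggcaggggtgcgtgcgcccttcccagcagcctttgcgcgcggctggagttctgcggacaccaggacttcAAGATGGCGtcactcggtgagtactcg
Atp5h promoter: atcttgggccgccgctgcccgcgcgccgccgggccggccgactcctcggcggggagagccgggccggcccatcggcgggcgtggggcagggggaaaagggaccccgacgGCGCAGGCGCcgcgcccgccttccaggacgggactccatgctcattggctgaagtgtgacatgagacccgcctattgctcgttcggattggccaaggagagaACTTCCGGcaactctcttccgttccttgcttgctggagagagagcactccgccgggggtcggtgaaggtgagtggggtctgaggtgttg
Sdhd promoter: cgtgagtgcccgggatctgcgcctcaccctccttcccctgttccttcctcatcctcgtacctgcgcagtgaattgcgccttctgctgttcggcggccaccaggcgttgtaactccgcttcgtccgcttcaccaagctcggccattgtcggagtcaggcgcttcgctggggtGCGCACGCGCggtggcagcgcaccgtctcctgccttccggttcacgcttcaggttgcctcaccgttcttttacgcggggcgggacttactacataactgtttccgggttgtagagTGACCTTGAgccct

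The NRF1 letters occurred 3 times in the window of *Sdha*, at 93, 50 and 5 bases before the start, and 2 times in that of *Uqcrc1*. They stand in capitals in these stretches of 30 bases, shown because the genes with the match include both the smallest and one of the largest differences among the called members.
Sdha match 1 (chr13:74350319-74350348, minus strand): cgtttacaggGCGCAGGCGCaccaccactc
Sdha match 2 (chr13:74350276-74350305, minus strand): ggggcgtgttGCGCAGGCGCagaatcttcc
Sdha match 3 (chr13:74350231-74350260, minus strand): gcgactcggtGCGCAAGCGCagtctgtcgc
Uqcrc1 match 1 (chr9:108936643-108936672, plus strand): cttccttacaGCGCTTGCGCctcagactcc
Uqcrc1 match 2 (chr9:108936668-108936697, plus strand): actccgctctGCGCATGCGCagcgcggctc
Atp5k (chr5:108434430-108434459, minus strand): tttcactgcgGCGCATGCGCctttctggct
The 9 members with the NRF1 letters had a median log2 fold change of 1.35 (0.78 to 2.81), and the 20 other members with a window had a median of 1.89 (1.12 to 2.98). The ranges overlapped, and the difference was not tested.

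Subunit transcripts were more abundant under the label YT-AKO throughout the 4 complexes. Of the 38 members, 37 rose and 0 fell at an edgeR adjusted p under 0.05, where 12.6% of the 16807 genes tested were called higher and 9.01% lower. *Uqcrc2* was the member not called. The median log2 fold change of the members was 1.81, with a range from 0.65 to 2.98, and the median of all tested genes was -0.02. In 37 members the CPM (counts per 1000000 fragments, scaled by TMM factors) did not overlap, with all 3 libraries labelled YT-AKO on the upper side, which held for 25.7% of tested genes. The log2 fold change was over 1 in 33 members (12.5% of tested genes) and over 2 in 10 members (1.93% of tested genes). The adjusted p of the called members ran from 0.0146 to 0.0444, so that at the study's own threshold of 0.01 with a log2 fold change over 1 edgeR called 0 members and 0.0892% of genes. All 37 had an unadjusted p under 0.05, as did 22.2% of genes in this direction, and at the study's threshold DESeq2 called 33 members, with 7.97% of genes. The number called also depended on single controls: without YT-FF 1 or without YT-FF 2, edgeR called 0 members and 0% of genes higher. Each time 37 members had an unadjusted p under 0.05. So did, in this direction, 2612 of 17183 genes without YT-FF 1 and 2510 of 17140 without YT-FF 2. Without YT-FF 3 edgeR called 21 members (4.03% of genes). With library totals alone in place of TMM factors 34 members were called (6.77% of genes).

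**Figure D1:**
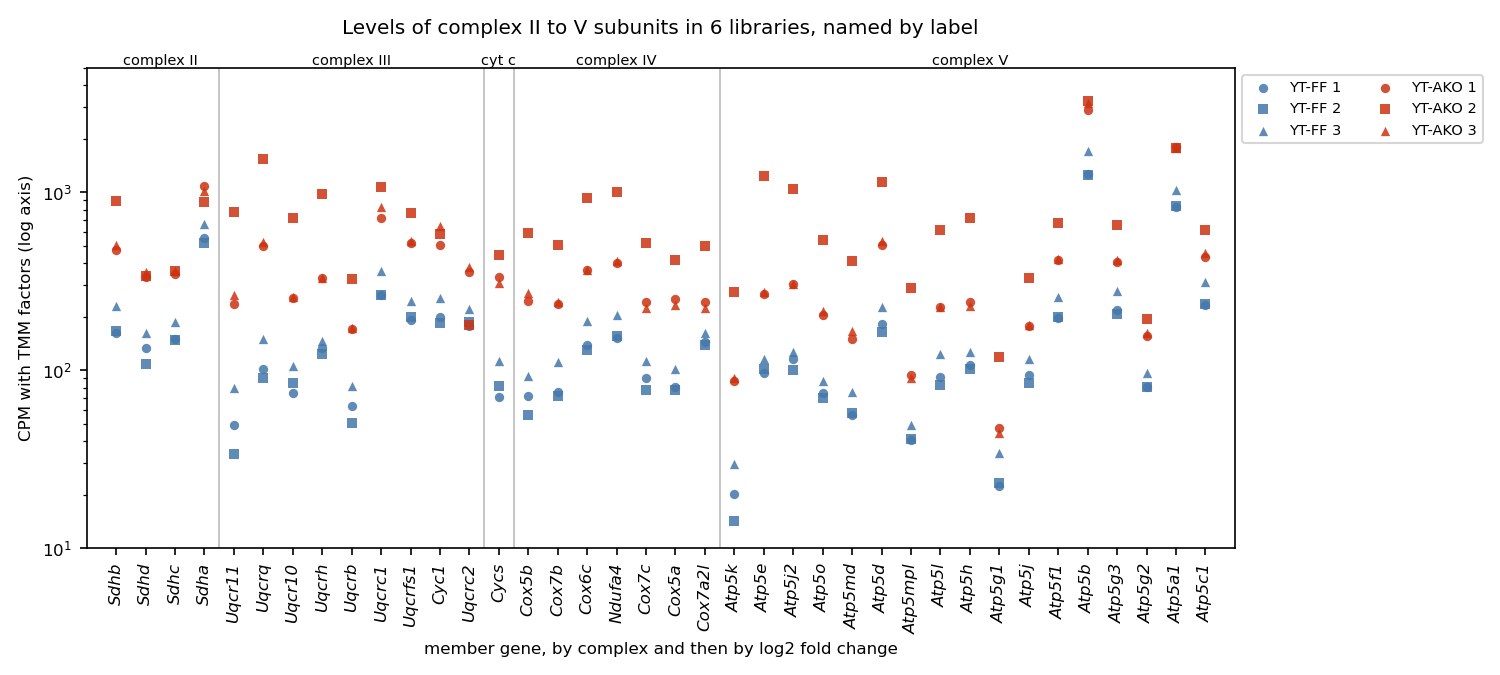
Level of each of the 38 members in the 6 libraries, in CPM with TMM factors on a log axis, grouped by complex and ordered by log2 fold change. Circles, squares and triangles stand for replicates 1, 2 and 3. Red points (labelled YT-AKO) lie above all blue points (YT-FF) in every column but *Uqcrc2*, and the red square of YT-AKO 2 is the highest point in 33 columns.

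Without the library labelled YT-AKO 2, all 38 members were called higher, *Uqcrc2* included, with 16.9% of genes called. The median log2 fold change was then 1.32 (0.65 to 2.22), and 3 members stayed over 2. The spread of the fold changes over the members also narrowed, from an SD of 0.578 to 0.379. The library labelled YT-AKO 2 was the highest of all 6 in 33 members. Its CPM ranged from 0.487 times the mean of its 2 group mates, for *Uqcrc2*, to 4.56 times, for *Atp5e*. Without the library labelled YT-AKO 1, which held the high muscle markers, 36 members were called higher (12.7% of genes) and the median was 1.98. *Acta1*, the actin of skeletal muscle, had 1109 CPM in the library labelled YT-AKO 1 and 41.1 to 312 CPM in the others. Without the library labelled YT-AKO 3 the number called was also 36 (10.2% of genes). These are bulk libraries of a depot, in which a larger share of cells of a type and more RNA per cell cannot be told apart.

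Complex II transfers electrons from succinate and takes part in the citric acid cycle as well. All 4 of its genes rose, with a median log2 fold change of 1.24 (0.78 to 1.75), and the median was also 1.24 without the library labelled YT-AKO 2. *Sdha* (chr13:74322254-74350280), the flavoprotein that binds succinate, had 555, 522 and 668 CPM in YT-FF 1, 2 and 3 and 1078, 887 and 1023 CPM in the libraries labelled YT-AKO 1, 2 and 3. The groups did not overlap, and the log2 fold change was 0.78 (SE 0.191, edgeR adjusted p = 0.0312), the smallest among the called members, and it was 0.85 without the library labelled YT-AKO 2. Scaling by library totals alone ended this call (edgeR adjusted p = 0.126). *Sdhb* (chr4:140961203-140979193), the iron-sulfur subunit, had 162, 166 and 228 CPM in YT-FF and 473, 895 and 504 CPM in the libraries labelled YT-AKO, a log2 fold change of 1.75 (SE 0.296, edgeR adjusted p = 0.0177) and 1.40 without the library labelled YT-AKO 2. *Sdhc* and *Sdhd* encode the membrane anchors that hold the ubiquinone site. Their libraries labelled YT-AKO lay close together, at 348, 362 and 359 CPM for *Sdhc* and at 332, 338 and 356 CPM for *Sdhd*. The YT-FF libraries ran from 148 to 187 CPM for *Sdhc* and from 109 to 161 CPM for *Sdhd*, whose promoter with NRF1 and ERR letters is shown above. The log2 fold changes were 1.14 for *Sdhc* and 1.35 for *Sdhd*, and without the library labelled YT-AKO 2 1.12 and 1.36. The library labelled YT-AKO 2 was well above its group mates in *Sdhb* and below them in *Sdha*.

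In complex III, 8 of 9 genes rose, with a median log2 fold change of 1.78 (0.65 to 2.98), or 1.40 without the library labelled YT-AKO 2. *Uqcr11* (chr10:80402997-80406830), a small accessory subunit, had 49.0, 33.7 and 79.5 CPM in YT-FF and 237, 774 and 266 CPM in the libraries labelled YT-AKO. The log2 fold change of 2.98 (SE 0.538, edgeR adjusted p = 0.0185) was the largest of the 38 members and equals 7.88-fold, against a log2 fold change of 2.22 without the library labelled YT-AKO 2. *Uqcrq* (chr11:53427922-53430831), the ubiquinone-binding small subunit, followed with 102, 90.4 and 149 CPM in YT-FF and 502, 1539 and 529 CPM in the libraries labelled YT-AKO, a log2 fold change of 2.91 (SE 0.484, edgeR adjusted p = 0.0177) and 2.18 without that library. In both genes even the lower libraries of the group were well above all YT-FF libraries. *Uqcr10* had 74.5, 84.6 and 105 CPM in YT-FF and 255, 720 and 259 CPM in the libraries labelled YT-AKO, a log2 fold change of 2.22, or 1.54 without the library labelled YT-AKO 2. The other small subunits, the acidic hinge protein gene *Uqcrh* and *Uqcrb*, had log2 fold changes of 2.03 and 1.78, or 1.30 and 1.40 without the library labelled YT-AKO 2.

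The redox subunits of complex III carry its heme and iron-sulfur centres. *Cyc1* (chr15:76343523-76346260), which encodes cytochrome c1, had 200, 184 and 254 CPM in YT-FF and 504, 585 and 647 CPM in the libraries labelled YT-AKO, with a log2 fold change of 1.44 (SE 0.201) that was 1.43 without the library labelled YT-AKO 2. *Uqcrfs1*, the Rieske iron-sulfur protein, had a log2 fold change of 1.51 (1.31 without the library labelled YT-AKO 2), and its libraries labelled YT-AKO lay at 520, 762 and 536 CPM against 191 to 246 CPM in YT-FF. The 2 core proteins, related to processing peptidases, differed from each other. *Uqcrc1* (chr9:108936633-108949623) had 264, 266 and 363 CPM in YT-FF and 716, 1074 and 823 CPM in the libraries labelled YT-AKO (log2 fold change 1.55, SE 0.234, and 1.37 without the library labelled YT-AKO 2). *Uqcrc2* (chr7:120635176-120659524) had 177, 188 and 221 CPM in YT-FF and 359, 180 and 379 CPM in the libraries labelled YT-AKO. Its libraries labelled YT-AKO 1 and 3 were above all YT-FF libraries and that labelled YT-AKO 2 was among them, so the groups overlapped. The log2 fold change was 0.65 (SE 0.287, edgeR adjusted p = 0.130), and without the library labelled YT-AKO 2 it was 0.92 (edgeR adjusted p = 0.0033). *Uqcrc2* shares 19.7% of its exon bases with *Pdzd9*, and fragments in such bases were not counted.

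*Cycs* (chr6:50562563-50566538) encodes somatic cytochrome c, which carries electrons from complex III to complex IV and is also known for its part in apoptosis. It had 70.8, 81.4 and 113 CPM in YT-FF and 333, 442 and 309 CPM in the libraries labelled YT-AKO. The groups were far apart relative to their spread, and *Cycs* had the smallest adjusted p of the members, with a log2 fold change of 2.03 (SE 0.240, edgeR adjusted p = 0.0146) and 1.86 without the library labelled YT-AKO 2. Its testis paralogue *Cyct* was at or near 0 counts in all libraries and was not tested. Of the 50-base words in the *Cycs* transcripts, 28.2% also occur in other annotated transcripts, among which fragments that align to several places were dropped.

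All 7 members of complex IV rose, with a median log2 fold change of 1.82 (1.12 to 2.33), or 1.32 without the library labelled YT-AKO 2. *Cox5a* and *Cox5b* encode matrix-side subunits. *Cox5b* (chr1:36691449-36693681) had 72.0, 55.8 and 92.5 CPM in YT-FF and 246, 593 and 271 CPM in the libraries labelled YT-AKO, the largest log2 fold change of the complex at 2.33 (SE 0.380, edgeR adjusted p = 0.0177), or 1.81 without the library labelled YT-AKO 2. *Cox5a* had 80.4, 77.6 and 102 CPM in YT-FF and 251, 417 and 233 CPM in the libraries labelled YT-AKO, a log2 fold change of 1.79, or 1.48 without the library labelled YT-AKO 2. The small membrane subunit genes *Cox6c*, *Cox7b* and *Cox7c* lay together at log2 fold changes of 1.86, 1.93 and 1.82, or 1.26, 1.47 and 1.32 without the library labelled YT-AKO 2. *Ndufa4*, named for complex I and since assigned to complex IV, had 152, 155 and 205 CPM in YT-FF and 401, 1002 and 411 CPM in the libraries labelled YT-AKO (log2 fold change 1.82, SE 0.382, and 1.25 without the library labelled YT-AKO 2). *Cox7a2l* (chr17:83501918-83517330), the supercomplex factor, moved least, with 145, 139 and 162 CPM in YT-FF and 243, 500 and 224 CPM in the libraries labelled YT-AKO. The log2 fold change was 1.12 (SE 0.314, edgeR adjusted p = 0.0423), and 0.65 without the library labelled YT-AKO 2 (edgeR adjusted p = 0.0072). The call of *Cox7a2l* was lost with library totals alone and with a correction for gene length (edgeR adjusted p = 0.061 and 0.094).

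**Figure D2:**
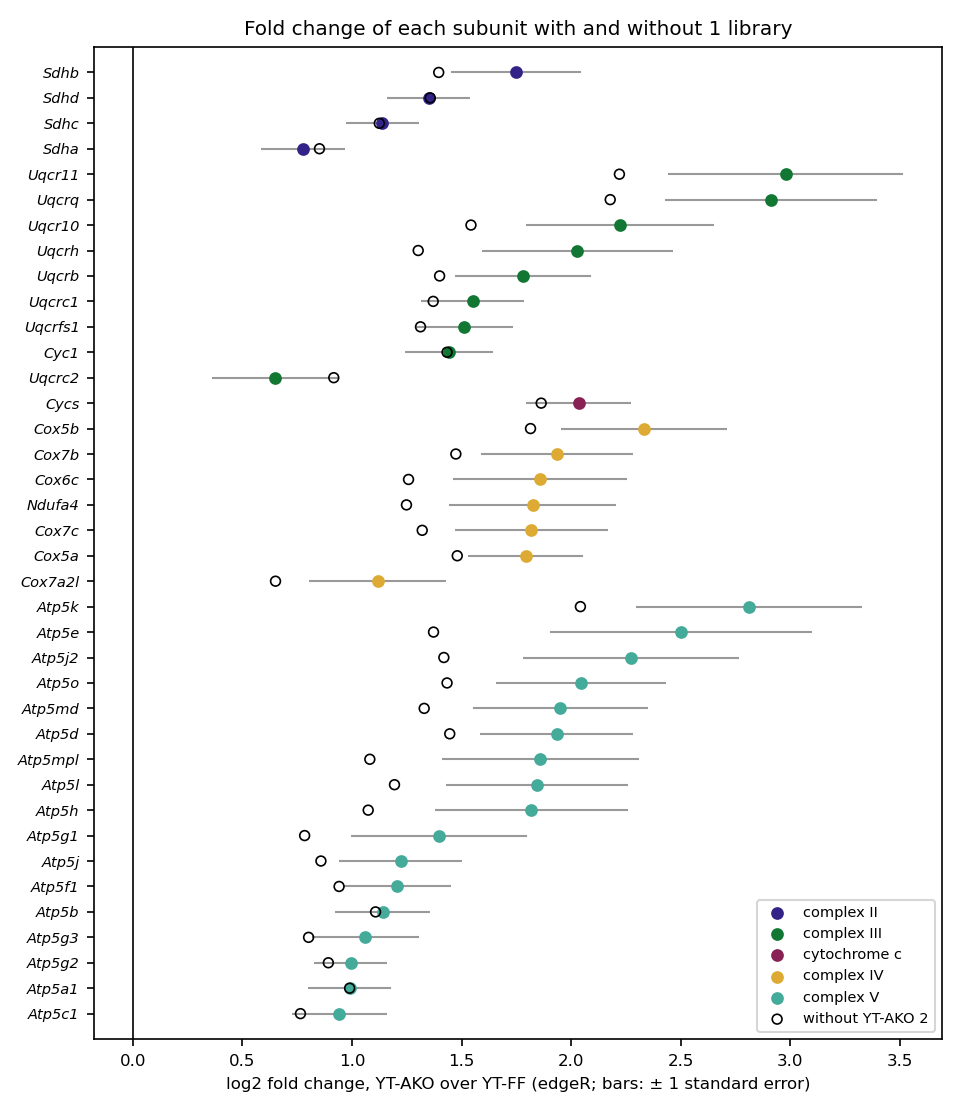
Log2 fold change of each member from edgeR, filled points with bars of 1 standard error, grouped by complex. Open circles are the fit without the library labelled YT-AKO 2. All points lie to the right of 0, and only the open circles of *Uqcr11*, *Uqcrq* and *Atp5k* stay beyond 2, while those of *Uqcrc2* and *Sdha* lie to the right of their filled points.

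Complex V was the largest group, and all 17 of its genes rose, with a median log2 fold change of 1.82 (0.94 to 2.81), or 1.08 without the library labelled YT-AKO 2. In CPM the alpha and beta subunits of the catalytic head moved evenly over the libraries, which did not hold per length (TPM, below). *Atp5b* (chr10:128083273-128090391), the beta subunit with the catalytic sites, had 1266, 1258 and 1704 CPM in YT-FF and 2895, 3240 and 3183 CPM in the libraries labelled YT-AKO, 2.20-fold, with a log2 fold change of 1.14 (SE 0.216, edgeR adjusted p = 0.0201) and 1.11 without the library labelled YT-AKO 2. *Atp5a1*, the alpha subunit, had 831, 834 and 1026 CPM in YT-FF and 1788, 1776 and 1777 CPM in the libraries labelled YT-AKO, and its log2 fold change was 0.99 with and without the library labelled YT-AKO 2. *Atp5c1*, the gamma subunit of the rotating stalk, had 233, 236 and 314 CPM in YT-FF and 432, 617 and 455 CPM in the libraries labelled YT-AKO (log2 fold change 0.94, SE 0.218, edgeR adjusted p = 0.0273), or 0.76 without the library labelled YT-AKO 2. The other subunits of the central stalk, delta (*Atp5d*) and epsilon (*Atp5e*), had larger values. *Atp5e* (chr2:174461072-174464105) had 96.9, 102 and 116 CPM in YT-FF and 268, 1242 and 277 CPM in the libraries labelled YT-AKO. The log2 fold change of 2.50 (SE 0.599, edgeR adjusted p = 0.0295) was 1.37 without the library labelled YT-AKO 2, the widest such gap among the members. *Atp5d* had 182, 163 and 226 CPM in YT-FF and 503, 1143 and 535 CPM in the libraries labelled YT-AKO, a log2 fold change of 1.93, or 1.45 without the library labelled YT-AKO 2.

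The peripheral stalk, which holds the head against rotation, gave a graded set of values. *Atp5f1* (subunit b) had a log2 fold change of 1.21, *Atp5j* (F6) 1.22, *Atp5h* (d) 1.82 and *Atp5o* (OSCP) 2.05. In the same order the values without the library labelled YT-AKO 2 were 0.94, 0.86, 1.07 and 1.43. *Atp5h*, whose promoter with NRF1 and ETS letters is shown above, had 108, 102 and 126 CPM in YT-FF and 243, 713 and 229 CPM in the libraries labelled YT-AKO. *Atp5o* had 74.8, 70.0 and 87.1 CPM in YT-FF and 204, 539 and 215 CPM in the libraries labelled YT-AKO. It shares 47.9% of its exon bases with other annotated genes, among them a second model of *Atp5o* that had 0 counts in every library, and fragments in the shared bases were not counted. The small membrane subunits came next. *Atp5k* (subunit e, chr5:108433244-108434448) was counted with 474, 324 and 582 fragments in YT-FF and 1490, 4657 and 1523 in the libraries labelled YT-AKO, with a log2 fold change of 2.81 (SE 0.515, edgeR adjusted p = 0.0189), and 2.04 without the library labelled YT-AKO 2. *Atp5j2* (subunit f), whose promoter with YY1 and TEAD letters is shown above, had 115, 100 and 127 CPM in YT-FF and 306, 1044 and 304 CPM in the libraries labelled YT-AKO, a log2 fold change of 2.27, or 1.42 without the library labelled YT-AKO 2. The genes *Atp5l* (subunit g), *Atp5md* and *Atp5mpl* had log2 fold changes of 1.84, 1.95 and 1.86, or 1.19, 1.33 and 1.08 without the library labelled YT-AKO 2. Near-identical annotated copies make some of these levels uncertain, since 68.5% of the 50-base words of *Atp5l*, 47.9% of those of *Atp5h* and 23.2% of those of *Atp5f1* occur in other genes. The same holds for *Cox7c* at 53.0%, *Uqcrb* at 43.2% and *Cox5b* at 25.9%.

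The c subunits form the ring that turns as protons pass, and *Atp5g1*, *Atp5g2* and *Atp5g3* encode the same mature protein behind different import sequences. All 3 genes rose. *Atp5g3* had 219, 207 and 281 CPM in YT-FF and 405, 652 and 416 CPM in the libraries labelled YT-AKO (log2 fold change 1.06, or 0.80 without the library labelled YT-AKO 2). *Atp5g2* had 80.7, 80.2 and 97.1 CPM in YT-FF and 157, 194 and 163 CPM in the libraries labelled YT-AKO (log2 fold change 0.99, or 0.89 without the library labelled YT-AKO 2), and 87.4% of its 50-base words occur in 2 other annotated genes. *Atp5g1* (chr11:96068852-96075670) was the lowest, with 22.3, 23.4 and 34.4 CPM in YT-FF and 47.7, 119 and 44.3 CPM in the libraries labelled YT-AKO. The log2 fold change of 1.40 (SE 0.400, edgeR adjusted p = 0.0444) was 0.78 without the library labelled YT-AKO 2, and it was not called with library totals alone or with the length correction (edgeR adjusted p = 0.055 and 0.052). Per kilobase of exon, *Atp5g1* gave 2.97%, 3.23% and 3.62% of the c-subunit transcripts in YT-FF and 3.36%, 5.52% and 3.04% in the libraries labelled YT-AKO. The groups overlapped, and the difference of 0.70 percentage points was within the spread (two-sided exact permutation test, p = 0.6, where 3 libraries against 3 cannot give less than 0.1). The counts alone put *Atp5g1* at 12.3% of the fragments in the library labelled YT-AKO 2 (95% Wilson interval 11.8% to 12.8%, counting error only), above the 6.93% to 8.36% of the other 5 libraries. The shares of *Atp5g2* and *Atp5g3* gave exact permutation p = 0.9 and 1.0.

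Levels of different genes were compared per length, as TPM (transcripts per 1000000, over summed exons). In YT-FF, *Atp5b* was the highest member at 1257 ± 168 TPM (SD, n = 3), followed by *Atp5a1* at 1083 ± 86.0 TPM with ranges of 1 SD that overlap, and then *Uqcrfs1* at 590 ± 56.4, *Uqcr10* at 571 ± 80.5 and *Sdha* at 533 ± 44.7 TPM, whose spreads overlap. *Atp5g1* was the lowest at 20.5 ± 4.20 TPM, below *Atp5l* at 58.1 ± 9.47 TPM. The summed exons can be much longer than the principal transcript, with 6443 against 544 bases in *Atp5l* but 1363 against 1363 in *Uqcrfs1*. The order of the members on this scale therefore also reflects the annotated exons. The 38 members summed to 1.22% of all TPM in YT-FF and 2.32% in the libraries labelled YT-AKO. By complex, the summed level went from 1447 ± 164 to 2165 ± 356 TPM in complex II, from 3336 ± 452 to 7975 ± 1607 in complex III, from 1919 ± 242 to 3889 ± 845 in complex IV and from 5379 ± 575 to 8938 ± 862 in complex V. None of these sums overlapped between the groups. TPM carries no TMM factor, and on this scale *Sdha* went only from 533 ± 44.7 to 593 ± 189 TPM and *Uqcrc2* from 290 ± 23.2 to 306 ± 159 TPM. The groups overlapped in TPM for both, and also for *Sdhc*, *Atp5a1*, *Atp5b*, *Atp5c1*, *Atp5g1* and *Atp5g2*, but not for the other members. In the library labelled YT-AKO 2, *Atp5a1* had 993 TPM against 1018 to 1181 TPM in YT-FF. *Atp5b* had 1340 TPM there, against 1148 to 1451 TPM in YT-FF.

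**Figure D3:**
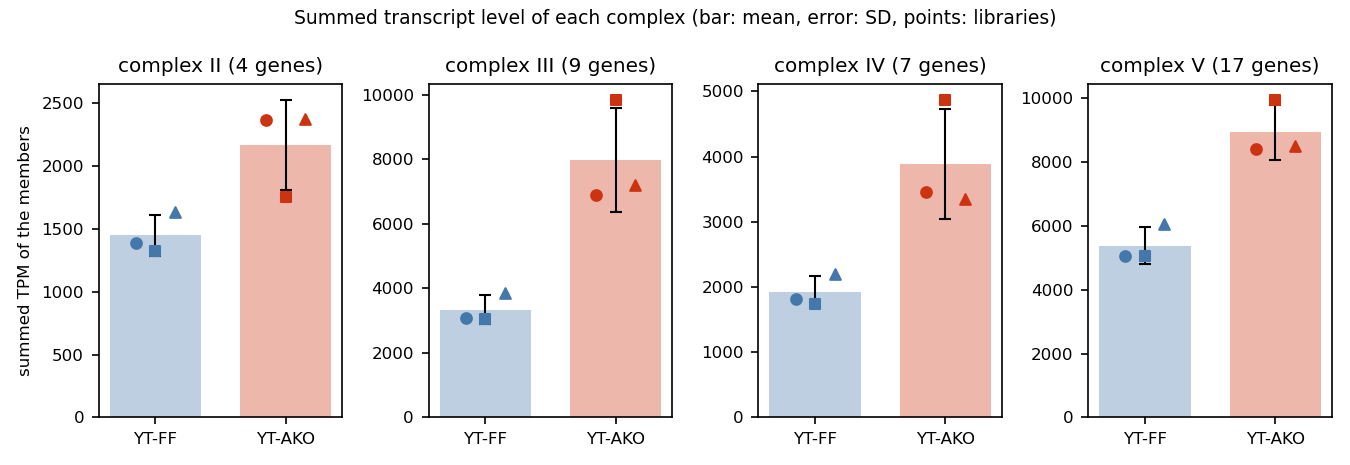
Summed TPM of the members of each complex, with bars for the mean of 3 libraries, error bars for the SD and points for the libraries (circle, square and triangle for replicates 1, 2 and 3). All libraries labelled YT-AKO lie above all YT-FF libraries in each panel, and the square of YT-AKO 2 is the highest point in complexes III, IV and V and the lowest of its group in complex II, at 1754 TPM.

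The members also share a feature that the choice did not use: most encode small proteins, of 52 to 664 residues by their coding length. Over the 38 members, the rank correlation (Spearman's rho) of log2 fold change with coding length was -0.72, and -0.37 without the library labelled YT-AKO 2. The ratio of that library to its group mates followed coding length with a rho of -0.78. These points share their libraries and are given as a description. The 19 members under the median coding length (52 to 129 residues) had a median log2 fold change of 1.95, against 1.35 in the 19 longer ones (136 to 664 residues). Without the library labelled YT-AKO 2 the medians were 1.37 and 1.11. The median log2 ratio of that library to its group mates was 1.39 in the shorter members and 0.48 in the longer ones. Gene length and fold change also went together over all 16807 tested genes, with a rho of -0.376 for summed exon length, against -0.379 over the members. With the length of the annotated principal transcript, rho was -0.519 over 14262 tested genes and -0.468 over the members. The members were shorter, with a median principal transcript of 978 bases against 2966 in those genes. With a correction for gene length in each library, 34 members were called higher (9.68% of genes) with a median of 1.40. The correction used summed exon length. Over the members, the rho of these corrected fold changes was -0.058 with summed exon length, -0.315 with principal transcript length and -0.61 with coding length. The rho with coding length was not taken over all tested genes. The part of transcript length or RNA quality in the differences was not tested.

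**Figure D4:**
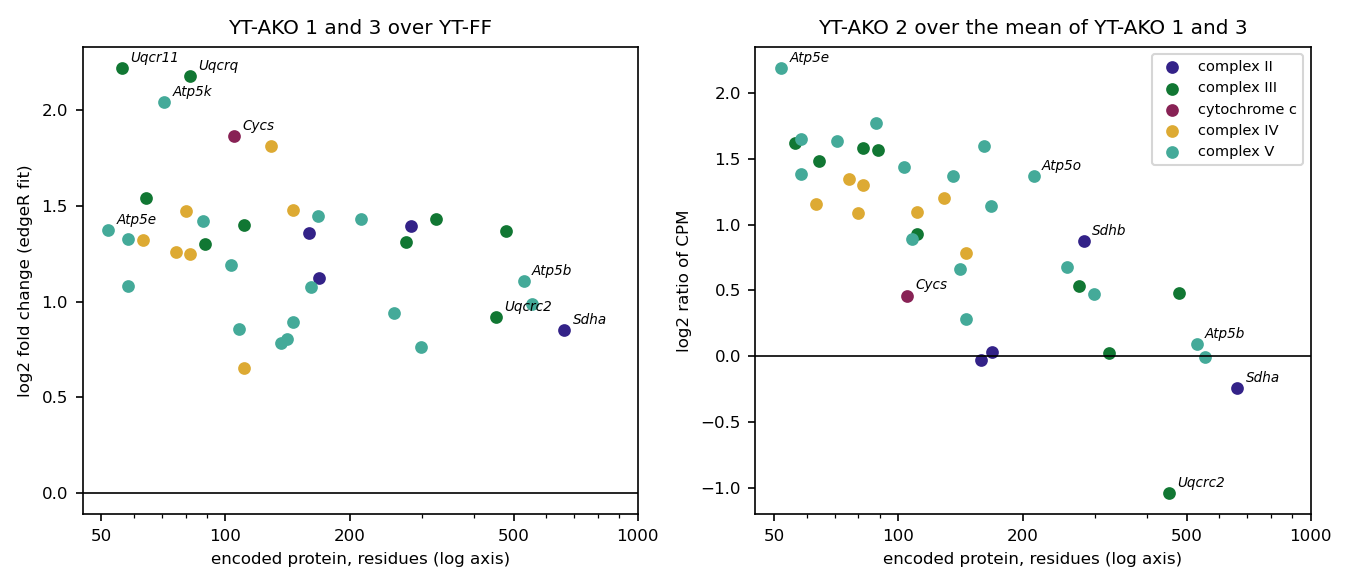
Size of the encoded protein in residues (log axis) against the log2 fold change of the libraries labelled YT-AKO 1 and 3 over YT-FF (left) and against the log2 CPM ratio of the library labelled YT-AKO 2 to the mean of 1 and 3 (right), 1 point for each of the 38 members, coloured by complex. All points on the left lie above 0 and fall with protein size (rho -0.37), while those on the right fall further (rho -0.78) and run from 2.19 for *Atp5e* down to -1.04 for *Uqcrc2*.

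The rest of the respiratory system was read from lists written with the members. Over all tested genes 12.6% were called higher, and 16.9% without the library labelled YT-AKO 2. Of 36 nuclear subunits of complex I, which takes electrons from NADH, 35 rose, with a median log2 fold change of 1.94, and *Ndufs6* was the largest at 3.09. All 36 rose without the library labelled YT-AKO 2, with a median of 1.41 and *Ndufs6* at 2.17. The exception was *Ndufs1* at 0.56 (edgeR adjusted p = 0.0849), the large iron-sulfur subunit, which like *Uqcrc2* was low in the library labelled YT-AKO 2 (164 CPM against 255 and 250 CPM). Of the complex IV subunits with tissue isoforms, 7 of 10 tested rose, with a median of 1.96. The largest were *Cox8b* at 4.56 and *Cox7a1* at 3.94, both forms of heart, muscle and brown fat, and *Cox6a1* at 2.25. With the library labelled YT-AKO 2 left out, these were 3.64, 3.25 and 1.74, and the median was 1.59, with 7 called. *Cox8b* had 28.9, 29.2 and 42.1 CPM in YT-FF and 362, 1527 and 468 CPM in the libraries labelled YT-AKO. The summed skeletal muscle markers in the libraries labelled YT-AKO 1, 2 and 3 were 3778, 567 and 263 CPM, and their part in these values was not tested. *Ucp1*, the uncoupling protein, had 6.78, 3.69 and 9.84 CPM in YT-FF and 144, 395 and 243 CPM in the libraries labelled YT-AKO, a log2 fold change of 5.27, or 4.84 without the library labelled YT-AKO 2. The 6 subunits of complexes III to V that the mitochondrial genome encodes were at 0 counts in every library, so the mitochondrial share of these complexes could not be read.

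Assembly factors of each complex were read in the same way, beside the 12.6% of all tested genes that were called higher. For complex II, 3 of 4 were called higher (median log2 fold change 1.33), with *Sdhaf1* at 1.66. For complex III, 5 of 7 were called (median 0.91), led by *Uqcc2* at 2.17 and *Uqcc3* at 2.07. For complex IV, 10 of 18 tested were called (median 0.77), with *Pet100* at 1.99, *Cox14* at 1.59 and *Coa3* at 1.54. For the assembly and inhibition of complex V, 3 of 6 were called (median 0.84). Among these 6, *Tmem242* rose by 1.20, while *Atp5if1*, the inhibitor of ATP hydrolysis, had a similar log2 fold change of 1.21 that was not called (edgeR adjusted p = 0.0764). Of 8 genes for other routes that feed electrons to ubiquinone, 4 rose. *Etfb*, the electron transfer flavoprotein beta subunit of fatty acid oxidation, had a log2 fold change of 3.39, *Etfa* one of 1.08, and *Chdh*, choline dehydrogenase, one of -1.18 (edgeR adjusted p = 0.144). Without the library labelled YT-AKO 2 the medians of these 5 lists, in the order given, were 1.02, 0.86, 0.56, 0.54 and 0.55, with 3, 5, 14, 3 and 5 genes called higher. The share of all genes called higher was then 16.9%, up from 12.6%. *Etfb* was then at 2.37 and *Uqcc2* at 1.41, and *Chdh* was called lower at -0.72. The difference between these lists and the subunits was not tested.

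Regulators of respiratory genes had a median log2 fold change of -0.10. Of 11 tested genes, 1 was called higher (9.09%), a share near the 12.6% of all tested genes. None was called lower, where 9.01% of all tested genes were. The gene called was *Esrra*, an estrogen-related receptor, with 72.2, 65.9 and 69.9 CPM in YT-FF and 107, 89.3 and 122 CPM in the libraries labelled YT-AKO (log2 fold change 0.61, SE 0.164, edgeR adjusted p = 0.0380). *Esrrg* had a log2 fold change of -1.51 (edgeR adjusted p = 0.0870) at no more than 5.41 CPM in any library. *Tfam*, the packaging factor of mitochondrial DNA, had one of 0.40 (edgeR adjusted p = 0.199). *Ppargc1a*, the coactivator known for inducing mitochondrial genes in brown fat, had 7.67 to 10.02 CPM in YT-FF and 11.7, 5.19 and 11.2 CPM in the libraries labelled YT-AKO, groups that overlapped (log2 fold change 0.02, SE 0.326). With the library labelled YT-AKO 2 left out, 2 of the 11 were called higher (16.9% of all genes) and 1 lower (2424 of 17350 genes). The median was then -0.10, and *Esrrg* was at -1.05 (edgeR adjusted p = 0.0330).

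**Figure D5:**
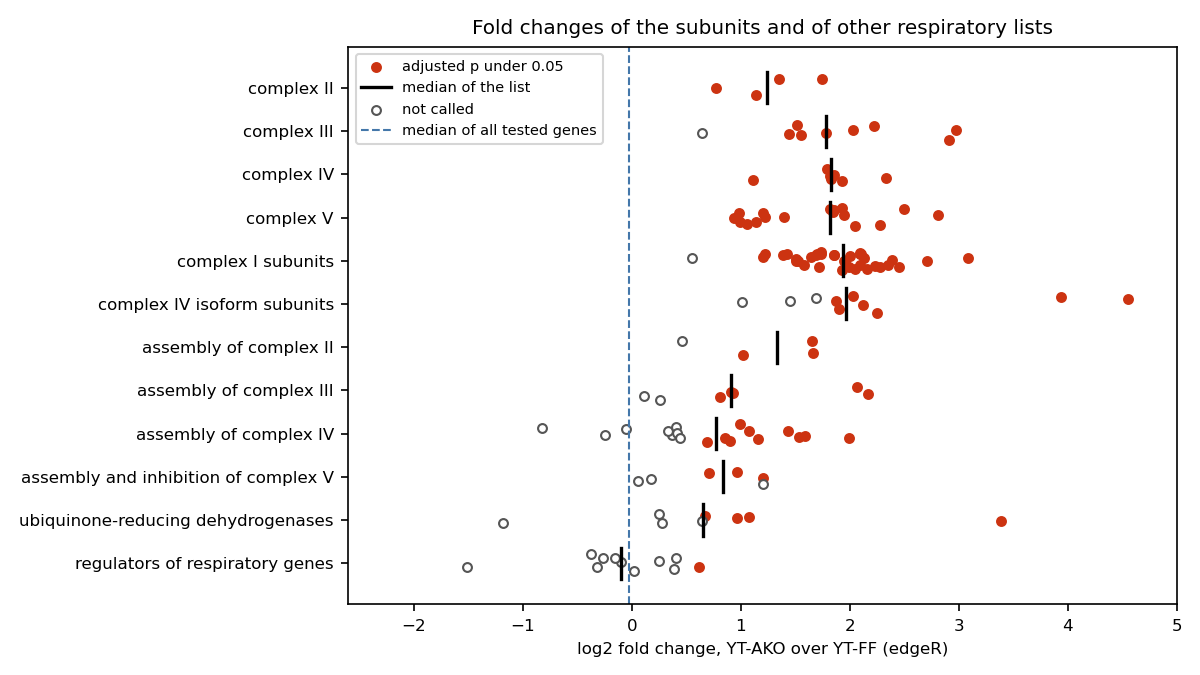
Log2 fold change from edgeR of each tested gene of the 4 complexes and of 8 other lists, 1 row a list, with filled red points for an adjusted p under 0.05, open points for genes not called and a bar for the median. The dashed line is the median of all tested genes, at -0.02. The 4 complexes and complex I lie wholly to the right of it, and the regulators lie around it, with a median of -0.10.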

How the data were processed

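The gene counts came from scWAT of 3 YT-FF and 3 YT-AKO mice, with groups taken from the labelled genotypes. The authors aligned paired-end reads to mm10 (HISAT2) and ran featureCounts (version 2.0.1, per the file headers) against the exons of GENCODE vM25. Raw fragment counts were deposited, unstranded, and multi-mapping fragments or those on more than 1 gene are not in them. Of 55401 genes, 55141 were matched to a symbol through a GENCODE annotation of the same build.

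R 4.3.3 and edgeR 4.0.16 were used, with TMM factors. The edgeR filter (filterByExpr, 10 counts, and 15 in total) kept 16807 genes. These were compared by the quasi-likelihood F-test, p-values were adjusted over all of them (Benjamini-Hochberg), and an adjusted p under 0.05 was a call. CPM was scaled by TMM, and TPM was computed per summed exon length. Shares of the c-subunit genes were compared with exact permutation tests. Totals were 17740987 to 21838493 fragments, which carry no molecular identifiers. The test was checked on simulated counts. Alternatives were DESeq2 1.42.0, limma-voom (limma 3.58.1), other scalings and filters, robust estimation, a replicate block, a gene-length correction (a spline in each library) and leaving out each library. The length correction without YT-AKO 2, and principal transcript lengths for the c-subunit shares, were added after the data were seen.

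The members and all lists were chosen with earlier results of these data known. Named genes are all members, up to 3 genes of each other respiratory list with the largest absolute fold change, *Ucp1*, *Yap1* and *Wwtr1*, and, of marker lists, the summed level and defining genes. *Ndufs1*, *Ppargc1a*, *Acta1*, *Adipoq*, *Zic1* and *Cyct* were named after their values were seen. *Atp5s*, a coupling factor and no subunit, was not counted as a member. Promoters shown in full are those of the called members with the most different motifs.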

Additional observations from a re-analysis of the deposited data

How the results depend on the processing

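Of the 684 refits of single members, 38 members under 18 alternatives, 0 changed direction, and the log2 fold changes ran from 0.36 to 3.37. The number of members called higher, 37, became 0 with the replicate number as a block, where 0.143% of genes were called and the lowest adjusted p of a member was 0.0544, and 1 with the length correction and the block together (0.327% of genes). Correlations of the deviations of same-numbered libraries were 0.126, -0.118 and -0.089, and those of differently numbered ones ran from -0.140 to 0.160. The labels do not say whether the replicate numbers pair the mice, and with 3 libraries a group these correlations cannot decide it. With the block 37 members kept an unadjusted p under 0.05, as did 3098 of 16807 genes in this direction. With 1 library left out in turn the number ran from 0 to 38. The members past an adjusted p of 0.01 and a log2 fold change of 1 numbered 33 with DESeq2, 33 with no filter, 25 with the length correction without YT-AKO 2, and 0 to 28 with 1 library left out. Over all genes these numbers were 1337 of 16784 with DESeq2, 1217 of 30027 with no filter and 415 of 17350 with that length correction. They ran from 0 to 619 with 1 library left out, with 619 of 17350 without YT-AKO 2. The median log2 fold change of the members, 1.81, was 1.34 with the length correction and block, 1.12 with the length correction without YT-AKO 2, and 1.32 to 2.00 with 1 library left out. That of complex II, 1.24, was 0.92 with library totals alone, 0.996 with the length correction and 1.0003 with the block added, and 1.07 with the length correction without YT-AKO 2. That last alternative gave 1.21 in complex III, 1.20 in complex IV and 0.96 in complex V. Complex V also gave 1.23 with the length correction and block, and 1.08 to 2.0996 with 1 library left out. The difference in the *Atp5g1* share was 0.70 percentage points, and ran from -0.0763 (without YT-AKO 2) to 1.17 with 1 library left out. Library totals alone moved the median of all genes to -0.34 and left 34 members called. The causes of these changes were not tested.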
